A study of Mus musculus with 4 samples.

Results

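The genes described here make, sense, move and export cholesterol in mouse liver. They are 31 genes listed by their roles, and a gene was measured if a probe set of the array carried its symbol alone. Of the 31 genes, 29 had such a probe set, 1 probe set each, among 19505 named genes in all. Acat2 and Tm7sf2 had none and are not analysed here. The study used 4 whole-transcript arrays, with 1 array of pooled liver RNA for each of 4 groups, to ask how loss of Mcu in hepatocytes affects the regenerating liver. Mcu encodes the channel by which mitochondria take up calcium.

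The groups, in the spelling of the sample titles, were KD_30h, KD_0h, WT_30h and WT_0h. All were livers of male C57BL6J mice homozygous for loxP-flanked Mcu alleles, injected at an age of 10 to 12 weeks through the tail vein with an adeno-associated virus, per the labels' protocols. The KD groups received AAV8-TBG-Cre and the WT groups, their littermates, AAV8-TBG-Null. They are called knockdown and control liver below, since by the protocol the controls carried the floxed alleles too although their label reads wild type. The TBG promoter is active in hepatocytes, so the other cells of the liver are expected to keep Mcu. At 30 h the remnant left after removal of 70% of the liver was taken, and surgery came 5 weeks after the injection. The 0 h groups are the time 0 controls, and no group had an operation without resection, so loss of liver cannot be told apart from the operation itself. The series text gives pools of 4 animals for each genotype. The free-text descriptions of all arrays mention ethanol feeding, which no other label does, and that of KD_30h gives another time after surgery than its title.

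With 1 array in each group no value below has an error, no difference has a replicate check, and no test was run. Values are RMA log2 levels, where 1 unit is a factor of 2, and the number of arrays limits their precision. Mcu read 2.63 and 2.83 on the KD_30h and KD_0h arrays, against 4.30 and 4.77 on the WT_30h and WT_0h arrays. The difference between knockdown and control liver was -1.67 at 30 h and -1.94 at 0 h. The hepatocyte markers were high on every array, with list medians of 11.58, 11.82, 11.46 and 11.74 on the KD_30h, KD_0h, WT_30h and WT_0h arrays over 10 genes. Of the 29 cholesterol genes, 28 were bright, which here means a mean over the 4 arrays at or above the median of all genes (3.83). Only Ggps1 was below it. The authors' scaling left bright genes off 0, with a median difference over 9759 bright genes of -0.11 between knockdown and control liver at 30 h and 0.06 at 0 h, so both backgrounds are given. In bulk liver, fewer cells of a type and less RNA per cell cannot be told apart.

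Cholesterol is built from acetyl-CoA through mevalonate and isoprenoid phosphates to squalene, which is folded into lanosterol and trimmed to cholesterol. When sterols in the endoplasmic reticulum are scarce, the escort protein SCAP carries the precursor of the transcription factor SREBP-2 to the Golgi, where cleavage frees it to switch on the synthesis genes; when sterols are plentiful, INSIG proteins hold SCAP back. Excess cholesterol gives rise to oxysterols that activate the liver X receptors (LXR), which switch on genes that move cholesterol out of cells, and the hepatocyte is the cell that passes it into bile.

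The promoters of the genes with the widest differences between arrays are shown first, among genes with a RefSeq window. Sqle and Npc1, which differed more than Ggps1, had no window. The promoters are given since SREBP-2 acts on synthesis genes together with factors that bind CCAAT and Sp1 boxes. Each is the RefSeq window of 250 bases before to 50 bases after the gene's start, from assembly GRCm38.p6, written from 5′ to 3′ on the gene's strand. Capitals mark matches, on either strand, to the sterol regulatory element consensus TCACNCCAC, the CCAAT box CCAAT and the Sp1 box GGGCGG. Hmgcs1, Pmvk, Mvd and Ggps1 act in the mevalonate and isoprenoid steps, Sc5d acts near the end of synthesis, Scap senses sterols, and Abcg5, Abcg8 and Pltp belong to export. Abcg5 is shown because it starts next to Abcg8.
Hmgcs1, chr13:119690101-119690400, plus strand: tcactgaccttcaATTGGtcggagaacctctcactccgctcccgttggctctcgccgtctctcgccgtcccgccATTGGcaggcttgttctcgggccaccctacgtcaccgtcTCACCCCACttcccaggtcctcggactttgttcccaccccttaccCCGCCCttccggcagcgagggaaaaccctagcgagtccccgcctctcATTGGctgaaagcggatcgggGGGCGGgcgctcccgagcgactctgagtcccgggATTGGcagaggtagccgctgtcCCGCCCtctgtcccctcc
Pmvk, chr3:89454291-89454590, plus strand: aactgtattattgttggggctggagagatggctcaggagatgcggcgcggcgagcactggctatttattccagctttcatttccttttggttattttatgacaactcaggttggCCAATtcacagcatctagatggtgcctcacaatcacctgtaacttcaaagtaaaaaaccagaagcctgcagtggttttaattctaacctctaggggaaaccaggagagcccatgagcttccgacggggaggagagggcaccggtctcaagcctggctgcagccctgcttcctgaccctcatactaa
Mvd, chr8:122443373-122443672, minus strand: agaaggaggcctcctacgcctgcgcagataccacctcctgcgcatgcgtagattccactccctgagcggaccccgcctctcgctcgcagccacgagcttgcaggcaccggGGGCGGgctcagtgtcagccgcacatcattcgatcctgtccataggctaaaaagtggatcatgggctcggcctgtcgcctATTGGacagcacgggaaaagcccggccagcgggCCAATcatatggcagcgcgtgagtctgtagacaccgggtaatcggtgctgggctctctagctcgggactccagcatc
Ggps1, chr13:14063439-14063738, minus strand: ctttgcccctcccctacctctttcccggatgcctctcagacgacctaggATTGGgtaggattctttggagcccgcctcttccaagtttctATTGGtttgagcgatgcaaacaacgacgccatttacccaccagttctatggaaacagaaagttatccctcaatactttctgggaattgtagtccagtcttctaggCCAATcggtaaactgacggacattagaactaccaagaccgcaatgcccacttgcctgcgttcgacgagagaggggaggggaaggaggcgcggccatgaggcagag
Sc5d, chr9:42264251-42264550, minus strand: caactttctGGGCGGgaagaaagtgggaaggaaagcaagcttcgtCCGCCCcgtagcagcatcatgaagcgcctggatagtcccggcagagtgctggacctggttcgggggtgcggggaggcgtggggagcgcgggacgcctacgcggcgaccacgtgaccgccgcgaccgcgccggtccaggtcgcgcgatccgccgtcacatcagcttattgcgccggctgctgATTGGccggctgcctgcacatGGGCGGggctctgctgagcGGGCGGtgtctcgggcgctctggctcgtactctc
Scap, chr9:110333038-110333337, plus strand: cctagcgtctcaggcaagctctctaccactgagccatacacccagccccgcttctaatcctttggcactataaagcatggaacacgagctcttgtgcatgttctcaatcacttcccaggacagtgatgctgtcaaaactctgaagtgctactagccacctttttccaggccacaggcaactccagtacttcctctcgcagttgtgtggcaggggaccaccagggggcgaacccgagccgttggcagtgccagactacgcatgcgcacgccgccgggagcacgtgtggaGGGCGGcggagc
Abcg5, chr17:84682962-84683261, minus strand: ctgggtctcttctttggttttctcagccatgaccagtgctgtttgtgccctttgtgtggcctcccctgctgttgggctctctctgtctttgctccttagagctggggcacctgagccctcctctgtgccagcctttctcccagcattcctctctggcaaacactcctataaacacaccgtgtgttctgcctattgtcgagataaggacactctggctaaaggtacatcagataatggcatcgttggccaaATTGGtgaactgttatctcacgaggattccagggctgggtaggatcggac
Abcg8, chr17:84682871-84683170, plus strand: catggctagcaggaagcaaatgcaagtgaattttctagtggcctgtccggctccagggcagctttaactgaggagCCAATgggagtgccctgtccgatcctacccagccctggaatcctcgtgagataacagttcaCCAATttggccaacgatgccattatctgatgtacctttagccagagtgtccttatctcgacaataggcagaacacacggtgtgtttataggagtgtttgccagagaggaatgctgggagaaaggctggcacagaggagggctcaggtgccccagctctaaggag
Pltp, chr2:164857659-164857958, minus strand: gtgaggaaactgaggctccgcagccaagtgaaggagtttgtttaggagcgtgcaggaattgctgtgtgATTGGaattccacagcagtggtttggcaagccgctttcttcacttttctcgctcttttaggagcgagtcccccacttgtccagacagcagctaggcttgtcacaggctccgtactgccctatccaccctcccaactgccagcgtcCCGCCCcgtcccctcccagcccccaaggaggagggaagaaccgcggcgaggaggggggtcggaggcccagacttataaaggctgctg

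Promoter windows were found for 24 of the 29 measured genes, and not for Sqle, Fdps, Fdft1, Npc1 and Stard4. The window of Hmgcs1 was the only one of the 24 to hold the sterol regulatory element consensus, 137 bases before the start (position -137), while 1.22% of 27025 promoters held it. A CCAAT box was found in 20 of the 24 windows (83.3%), against 37.9% of all promoters and 38.9% of 7934 promoters of bright genes. The window of Hmgcs1 held 4 of them and that of Mvk 5. An Sp1 box was found in 18 windows (75%), against 35.9% of all promoters and 61.9% of those of bright genes. No match to one motif overlapped a match to another (0 pairs). Abcg5 and Abcg8, which encode the subunits of the biliary sterol pump, start 110 bases apart on opposite strands, so their windows share 209 bases, read on opposite strands. The only CCAAT box of Abcg5 is the same site as the Abcg8 match at position -114. The 20 windows with a CCAAT box thus count this site for both genes. These matches describe letters only, and a window without one says nothing about the factor.

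**Figure D1:**
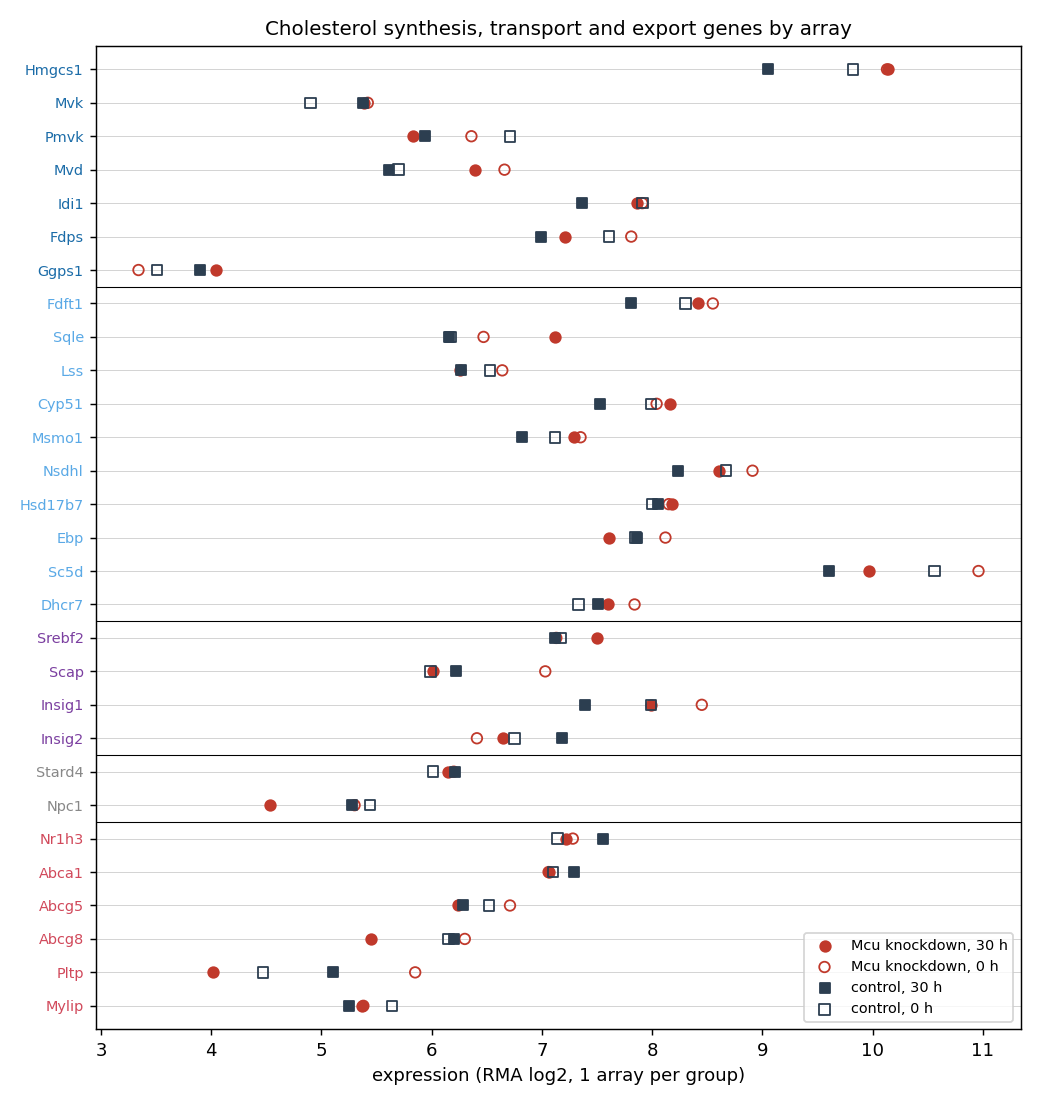
RMA log2 level of the 29 measured genes (rows, grouped by role and coloured by it) on each of the 4 arrays. Red circles are Mcu knockdown liver and dark squares control liver, filled at 30 h and open at 0 h, with 1 array each. Hmgcs1 lies lowest in control liver at 30 h (9.05), and the 4 values of Pltp spread from 4.02 to 5.85.

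At 30 h after hepatectomy, most genes of cholesterol synthesis were higher in knockdown than in control liver. Pltp, Abcg8 and Npc1 were at least 1.5-fold lower, a number near the background share. Of the 17 measured synthesis genes, 14 were higher in knockdown liver, with a median difference of 0.37, against 49.2% of all genes and 37.8% of bright genes. At 0 h 14 of the 17 were higher too, with a median of 0.24. The background there was 51% of all genes and 56.7% of bright genes. After quantile and after cyclic loess normalization 16 of the 17 were higher at 30 h, and 12 and 13 at 0 h. Of all genes, 47.5% and 47.8% were then higher at 30 h, and 49.3% and 50.3% at 0 h. Of bright genes, 47.3% and 47.7% were higher at 30 h, and 50% and 50.3% at 0 h. Lower at 30 h were 12 of the 29 in all, against 49.8% of all genes and 61.2% of bright genes. By size, 1 of the 29 genes was at least 2-fold higher (background 2.07% of all genes) and 1 at least 2-fold lower (background 1.86%), so few differences were wide. At 1.5-fold, 6 of the 29 (20.7%) were higher, against 10.4% of all genes and 6.31% of bright genes, and 5 of the 6 were synthesis genes. At 1.5-fold lower stood 3 of the 29 (10.3%), against 9.19% of all genes and 12.5% of bright genes, a share near the background. The count of 6 depended on the scaling. It was 3 (10.3%) with each array centred on its median, against 8.54% of all genes and 5.27% of bright genes. It was 8 after quantile normalization, against 8.09% of all genes and 7.23% of bright genes, and after cyclic loess, against 8.18% and 7.4%.

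Among the mevalonate and isoprenoid steps, Hmgcs1, the cytosolic synthase that makes HMG-CoA, differed most. It read 10.14 on KD_30h and 10.13 on KD_0h, against 9.05 on WT_30h and 9.82 on WT_0h. The 2 knockdown arrays were nearly equal, and the control array at 30 h was the lowest of the 4. Hmgcs1 was thus 2.13-fold higher in knockdown liver at 30 h (1.09), the 262nd highest of 19505 differences, and 1.24-fold higher at 0 h (0.31). Mvd, the decarboxylase that yields isopentenyl diphosphate, read 6.39 and 6.66 on KD_30h and KD_0h, against 5.61 and 5.70 on WT_30h and WT_0h. Both knockdown arrays lay above both control arrays, by 0.78 at 30 h and 0.96 at 0 h. Idi1, the isomerase of isopentenyl diphosphate, was higher in knockdown liver by 0.50 at 30 h and equal at 0 h (7.91 on both arrays).

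The other 4 genes of these steps differed by less than 1.5-fold between genotypes at both times. Fdps, farnesyl diphosphate synthase, read 7.21 and 7.81 on KD_30h and KD_0h, against 6.99 and 7.61 on WT_30h and WT_0h. Its knockdown values were above control by 0.22 at 30 h and 0.20 at 0 h, and both 30 h arrays were below both 0 h arrays. Pmvk, phosphomevalonate kinase, had 5.83 and 6.36 on KD_30h and KD_0h, against 5.94 and 6.71 on WT_30h and WT_0h. It was the only synthesis gene lower in knockdown liver at both times (-0.11 at 30 h and -0.35 at 0 h), and at 30 h it turned to 0.06 after quantile and 0.07 after cyclic loess normalization. Ggps1, which makes the geranylgeranyl group for protein prenylation, was dim, with 4.04 and 3.34 on KD_30h and KD_0h, against 3.90 and 3.51 on WT_30h and WT_0h. Mevalonate kinase, Mvk, was 0.01 higher in knockdown liver at 30 h and 0.52 higher at 0 h.

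Of the squalene and sterol steps, Sqle, the rate-limiting squalene epoxidase, was the one most different between genotypes at 30 h. Sqle had 7.12 and 6.47 on KD_30h and KD_0h, against 6.16 and 6.17 on WT_30h and WT_0h. The knockdown array at 30 h stood above the other 3, and the control arrays were equal within 0.01, so Sqle was 1.95-fold higher in knockdown liver at 30 h (0.96). Fdft1, squalene synthase, read 8.42 and 8.55 on KD_30h and KD_0h, against 7.81 and 8.30 on WT_30h and WT_0h. Cyp51, the lanosterol demethylase, read 8.16 and 8.04 on KD_30h and KD_0h, against 7.53 and 7.99 on WT_30h and WT_0h. For both, control liver at 30 h was the lowest array, and the knockdown was 1.53-fold (Fdft1, 0.61) and 1.55-fold (Cyp51, 0.63) higher at that time. Sc5d, the sterol desaturase, was higher in knockdown liver by similar amounts at both times (0.37 at 30 h and 0.40 at 0 h).

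The remaining 6 genes of these steps differed by less than 1.5-fold at 30 h. The demethylating enzymes Msmo1 and Nsdhl were 0.47 and 0.38 higher in knockdown liver, Hsd17b7, the ketoreductase that works with them, 0.13, and Dhcr7, the final reductase, 0.09. Lanosterol synthase, Lss, differed by -0.01, and Ebp, the sterol isomerase, by -0.25. At 0 h all 10 genes of the squalene and sterol steps were higher in knockdown liver, by 0.05 (Cyp51) to 0.51 (Dhcr7), with a median of 0.245. The background was 51% of all genes and 56.7% of bright genes. After quantile normalization 8 of the 10 were higher and after cyclic loess 9 of the 10, with medians of 0.13 under both. The background was then 49.3% of all genes and 50% of bright genes (quantile), or 50.3% of each (cyclic loess). Over all 17 synthesis genes, 12 (70.6%) were higher in knockdown liver at both times, against 24.3% of all genes and 20.9% of bright genes.

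**Figure D2:**
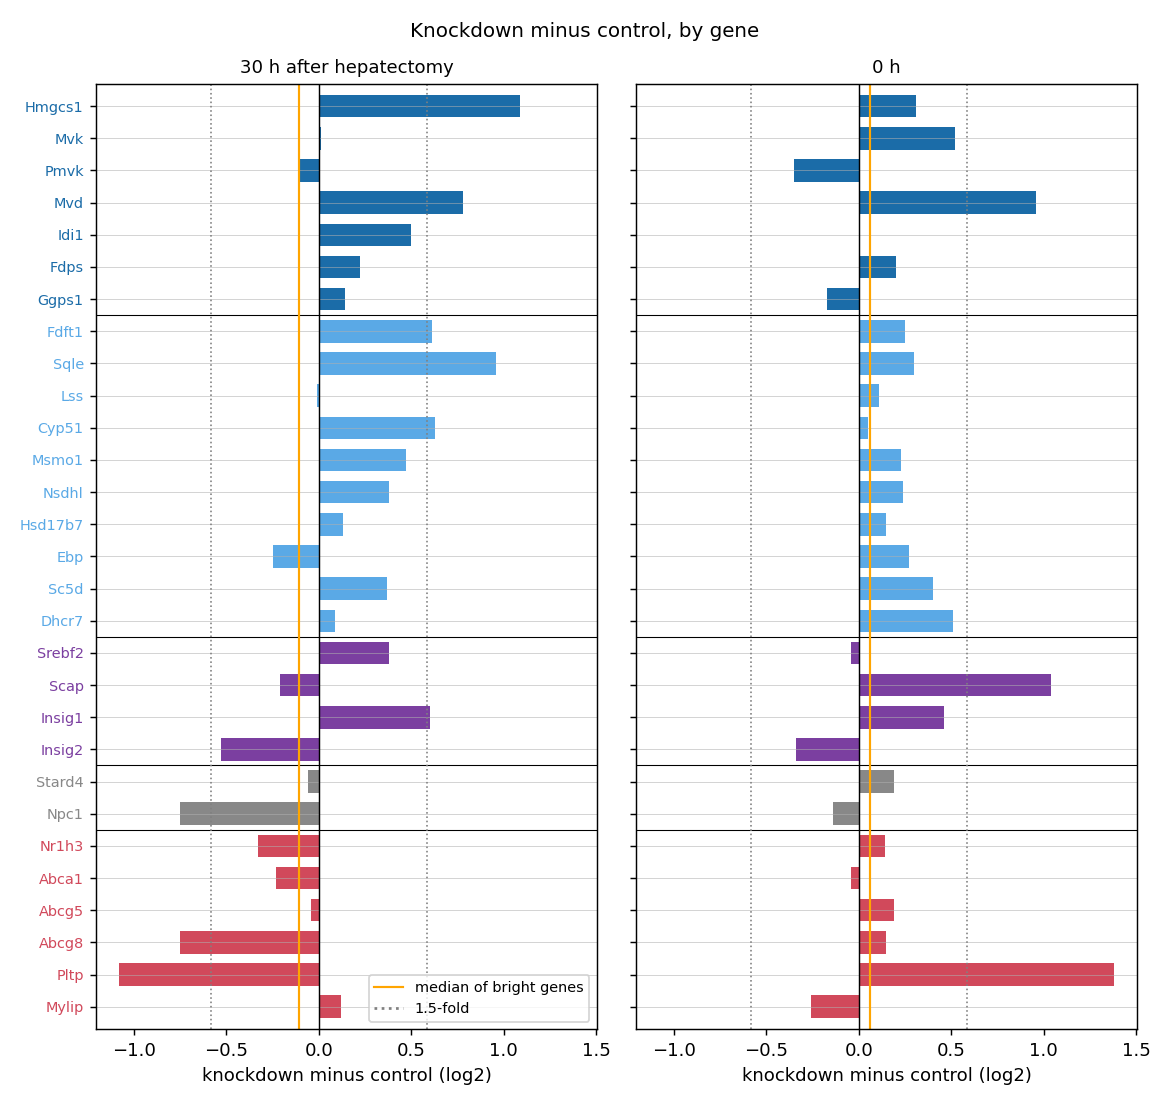
Knockdown minus control (log2) for each gene, at 30 h after hepatectomy (left) and at 0 h (right), 1 array a group. Bars are coloured by role, dotted lines mark 1.5-fold and the orange line the median of bright genes (-0.11 at 30 h and 0.06 at 0 h). Hmgcs1 (1.09) and Pltp (-1.08) are the ends at 30 h, and Pltp (1.38) is the highest at 0 h.

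The sterol sensing genes did not share a direction. Insig1, a retention factor for SCAP whose own gene is an SREBP target, read 7.99 and 8.45 on KD_30h and KD_0h, against 7.39 and 7.99 on WT_30h and WT_0h. It was higher in knockdown liver at both times, by 0.60 at 30 h and 0.46 at 0 h. Its paralog Insig2 was lower in knockdown liver at both (-0.53 at 30 h and -0.34 at 0 h). Srebf2, which encodes SREBP-2, was 0.38 higher at 30 h and differed by -0.04 at 0 h. Scap read 6.01 and 7.03 on KD_30h and KD_0h, against 6.22 and 5.99 on WT_30h and WT_0h. The knockdown array at 0 h stood alone, 2.06-fold above control (1.04), while the other 3 arrays lay within 0.23 of each other. That difference of Scap was 0.99 after quantile and 0.97 after cyclic loess normalization, just under 2-fold.

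Among the transport and export genes, Pltp spread most over the arrays. Pltp encodes phospholipid transfer protein, a plasma protein that remodels high-density lipoprotein and is a known LXR target. It read 4.02 and 5.85 on KD_30h and KD_0h, against 5.10 and 4.47 on WT_30h and WT_0h. The knockdown array at 0 h was the highest and that at 30 h the lowest, so the difference from control changed sign between the times. The lowest value, 4.02, lay close to the median of all genes on the KD_30h array (3.86), where values are less precise. Knockdown liver was 2.11-fold lower at 30 h (-1.08, the 254th lowest gene) and 2.60-fold higher at 0 h (1.38, the 46th highest).

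Abcg8 had 5.45 and 6.30 on KD_30h and KD_0h, against 6.20 and 6.15 on WT_30h and WT_0h. Only the knockdown array at 30 h was low, 1.68-fold below control (-0.75). Its partner Abcg5, needed for a working pump, had 6.24 and 6.71 on KD_30h and KD_0h, against 6.28 and 6.52 on WT_30h and WT_0h. The partners therefore did not differ alike at 30 h, when Abcg5 was -0.04 from control. Npc1, which lets cholesterol leave the lysosome, had 4.53 and 5.30 on KD_30h and KD_0h, against 5.28 and 5.44 on WT_30h and WT_0h. As with Abcg8, the knockdown array at 30 h was the low one, with the same difference from control (-0.75).

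The other genes of these roles were close to control. Abca1, which loads cholesterol onto lipid-poor apolipoprotein, differed by -0.23 at 30 h and -0.04 at 0 h, and Nr1h3, which encodes LXR-alpha, by -0.33 and 0.14. Mylip, a ubiquitin ligase that degrades lipoprotein receptors, differed by 0.12 and -0.26, and Stard4, a soluble sterol carrier, by -0.06 and 0.19. Of the 6 LXR and export genes, 5 (83.3%) were lower in knockdown liver at 30 h (median -0.28), against 49.8% of all genes and 61.2% of bright genes. At 0 h 4 (66.7%) were higher (median 0.145), against 51% of all genes and 56.7% of bright genes, a share near the background. After quantile normalization 4 of the 6 were lower at 30 h, with a median of -0.10, against -0.025 for bright genes under the same setting.

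Markers of macrophages, like Pltp, were mostly higher in knockdown liver at 0 h and lower at 30 h. Of 11 measured Kupffer cell and macrophage markers, 9 showed this order, as did 4 of the 6 LXR and export genes, against 26.3% of all genes and 35.2% of bright genes. The macrophage markers had medians of -0.27 at 30 h and 0.42 at 0 h, and the log2 of their summed signal was 9.37 and 9.53 on KD_30h and KD_0h, against 9.63 and 9.10 on WT_30h and WT_0h. The lowest marker value was 3.41, Adgre1 on KD_30h. After quantile and after cyclic loess normalization 7 of the 11 were lower at 30 h. The medians were then -0.11 and -0.12, against -0.025 and -0.02 for bright genes. At 0 h 9 of the 11 were higher under each setting, with medians of 0.36 and 0.35. Of 10 sinusoidal endothelial markers, 5 showed this order, with medians of -0.185 at 30 h and 0.31 at 0 h. The log2 of their summed signal was 8.29 and 9.03 on KD_30h and KD_0h, against 8.46 and 8.69 on WT_30h and WT_0h. Of 9 stellate cell markers, 3 showed it, with medians of 0.08 at 30 h and 0.29 at 0 h. Of 10 hepatocyte markers, 4 showed it, with medians of 0.005 at 30 h and 0.05 at 0 h. The part of these cells in the values of Pltp, Abcg8 and Npc1 was not tested.

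At 0 h, before any resection, the genes as a whole were slightly higher in knockdown liver. Of the 29, 21 (72.4%) were higher, with a median of 0.19, against 51% of all genes and 56.7% of bright genes, whose median was 0.06. The median was smaller after quantile (0.10, 19 of the 29 higher) and after cyclic loess normalization (0.11, 20 of the 29 higher). Higher were then 49.3% of all genes and 50% of bright genes (quantile), or 50.3% of each (cyclic loess). At least 2-fold higher were 2 of the 29 (6.9%), Pltp and Scap (background 1.45%), and none of the 29 was 2-fold lower (background 1.25%). At 1.5-fold Mvd joined them, giving 3 of the 29 (10.3%) against 7.74% of all genes and 7.7% of bright genes, and 0 were lower, against 7.52% of all genes and 4.49% of bright genes. The share at 1.5-fold was near the background, while that at 2-fold, above it, rests on these 2 genes, and Scap was under 2-fold after quantile and after cyclic loess normalization.

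The response to hepatectomy, taken as 30 h minus 0 h, was set side by side in both genotypes. In knockdown liver 21 of the 29 genes were lower at 30 h, with a median of -0.13, against 48.8% of all genes and 53.1% of bright genes. At least 2-fold lower were 2 of the 29, Pltp and Scap (background 2.01%), and 0 were 2-fold higher (background 2.72%). At 1.5-fold, 6 of the 29 (20.7%) were lower against 9.69% of all genes and 12% of bright genes, namely Pltp, Scap, Sc5d, Abcg8, Npc1 and Fdps. At 1.5-fold higher were Ggps1 and Sqle, 6.9% of the 29 against 10.4% of all genes and 9.12% of bright genes. In control liver 17 of the 29 were lower, with a median of -0.09, against 50% of all genes and 40.8% of bright genes. No gene of the 29 reached 2-fold in control liver, either higher (background 4.19%) or lower (background 2.22%). At 1.5-fold, 5 (17.2%) were lower, Sc5d, Hmgcs1, Pmvk, Fdps and Insig1, against 11% of all genes and 8.05% of bright genes, and Pltp alone was higher (3.45%), against 12.5% of all genes and 17.5% of bright genes. After quantile and after cyclic loess normalization 9 of the 29 were lower at 1.5-fold in control liver, so this count rests on the scaling. The background was then 11.3% of all genes and 11.9% of bright genes (quantile), or 9.93% and 10.6% (cyclic loess).

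Sc5d was lower after hepatectomy by about the same amount in both genotypes. It read 9.97 and 10.96 on KD_30h and KD_0h, against 9.60 and 10.56 on WT_30h and WT_0h. That was 1.99-fold lower at 30 h in knockdown liver (-0.99) and 1.95-fold lower in control liver (-0.96). Its difference of responses was -0.03 as deposited, 0.13 after quantile and 0.16 after cyclic loess normalization. Fdps also matched as deposited, at -0.60 in knockdown and -0.62 in control liver, but not after quantile normalization (-0.58 and -0.88) or cyclic loess (-0.55 and -0.85). Hmgcs1 was not: it differed by 0.01 in knockdown liver and by -0.77 in control liver. Idi1 (-0.05 and -0.55), Cyp51 (0.12 and -0.46) and Fdft1 (-0.13 and -0.49) likewise differed more in control liver. Sqle was higher at 30 h in knockdown liver (0.65) and level in control liver (-0.01). Dhcr7 (-0.24 and 0.18), Ebp (-0.51 and 0.01) and Mvk (-0.03 and 0.48) had lower values in knockdown liver than in control liver for this difference.

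**Figure D3:**
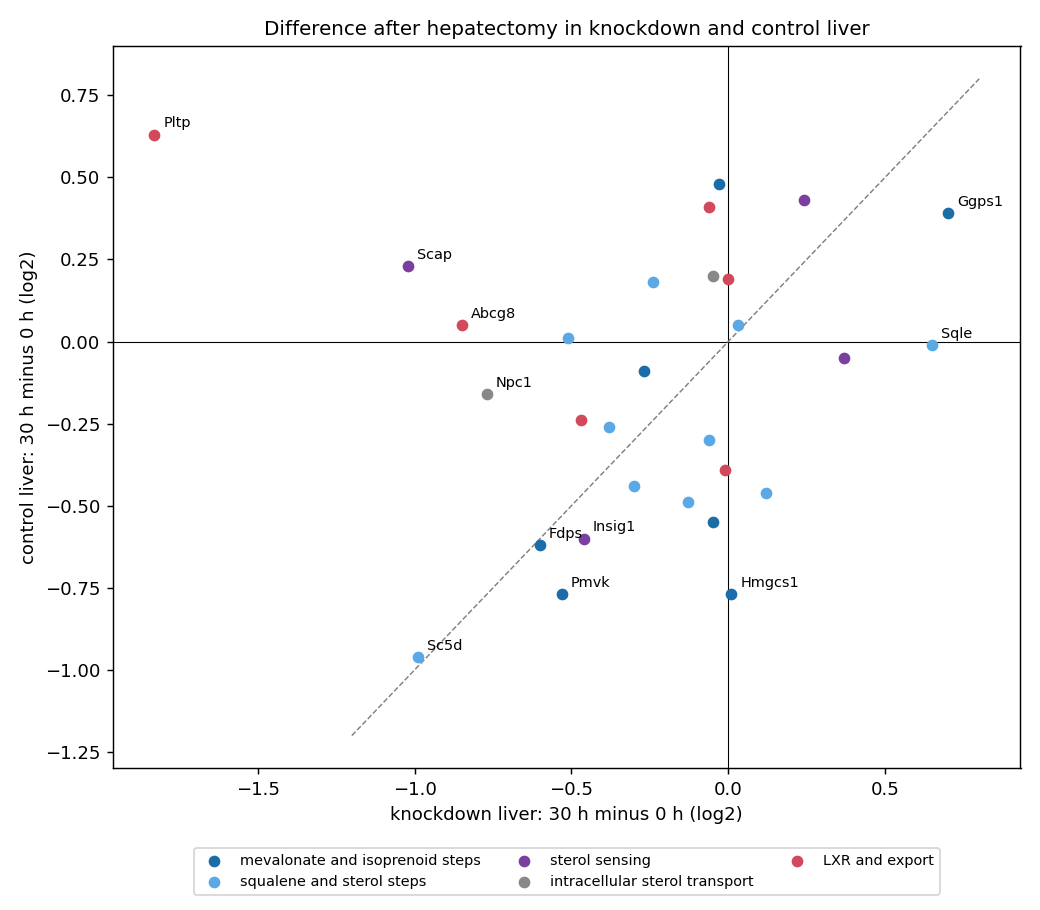
Difference between 30 h and 0 h (log2) in knockdown liver (horizontal axis) and in control liver (vertical axis) for the 29 genes, coloured by role. Each axis rests on 2 arrays, the dashed line marks equal differences, and genes at least 1.5-fold on either axis are named. Sc5d and Fdps lie close to the line, Hmgcs1 (0.01 and -0.77) lies to its right and Pltp (-1.83 and 0.63) far to its left.

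The difference of the responses, knockdown minus control, uses all 4 arrays. Over the 29 genes its median was -0.03, against -0.02 for all genes and -0.18 for bright genes. Of the 29, 13 were above 0, against 48.3% of all genes and 36.1% of bright genes, and 16 below 0, against 51% and 63.2%. The 17 synthesis genes had a median of 0.14, with 10 above 0, and the 6 LXR and export genes a median of -0.35, with 5 below 0. At least 2-fold lower were 2 of the 29 (6.9%), Pltp and Scap, a share near the background (5.82%), and 0 were 2-fold higher (background 6%). The KD_0h value of Scap (7.03), which stood alone, enters its difference at 0 h, its knockdown response and this difference. At 1.5-fold, Hmgcs1 (0.78) and Sqle (0.66) were higher, 6.9% of the 29 against 16.9% of all genes and 9.63% of bright genes. Pltp (-2.46), Scap (-1.25), Abcg8 (-0.90) and Npc1 (-0.61) were lower, 13.8% of the 29 against 17% of all genes and 22.5% of bright genes. After quantile and after cyclic loess normalization 6 of the 29 (20.7%) were at least 1.5-fold higher, among them 5 synthesis genes. The background was then 14.7% of all genes and 12.5% of bright genes (quantile), or 14.4% and 12.5% (cyclic loess). The count of higher genes therefore lay below or above the background according to the scaling. Pltp had the 8th lowest difference of responses among 19505 genes. Beside these values, the Kupffer cell and macrophage markers had a median of -0.71, the sinusoidal endothelial markers one of -0.875, and the hepatocyte markers one of -0.05.

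The scaling moved these medians together with that of bright genes, which was -0.03 after quantile and after cyclic loess normalization. After quantile normalization the synthesis genes had a median difference of responses of 0.30, with 14 of 17 above 0, and after cyclic loess also 0.30, with 14 of 17 above 0. Above 0 were then 48.4% of all genes and 47.6% of bright genes (quantile), or 48.1% and 47.8% (cyclic loess). The LXR and export genes had medians of -0.09 and -0.08 under these settings, with 3 of 6 above 0 and 3 below 0 under each, near the background. The values of Pltp stayed at -2.41 and -2.37. The macrophage markers had medians of -0.47 and -0.44 under these settings, against -0.71 as deposited, and the sinusoidal endothelial markers -0.81 under each.

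**Figure D4:**
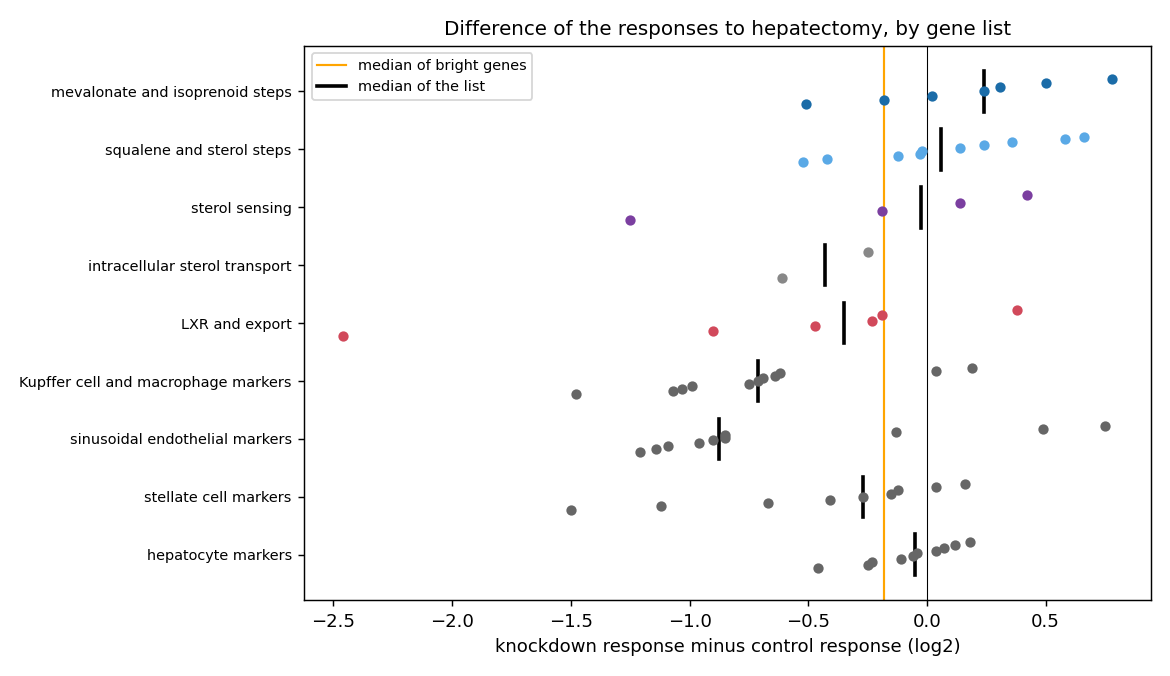
Knockdown response minus control response (log2, 4 arrays) for each gene of the 5 roles and of 4 lists of cell type markers (rows). Points are genes, black bars are list medians and the orange line is the median of bright genes (-0.18). The macrophage and endothelial marker medians (-0.71 and -0.875) lie below that of the LXR and export genes (-0.35).

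Other genes of cholesterol handling, in a list of 32 of which 25 were measured, were set beside the 29. At 30 h, 10 of the 25 were higher in knockdown liver (median -0.09), against 49.2% of all genes and 37.8% of bright genes. At 1.5-fold 0 of the 25 were higher, against 10.4% of all genes, and 2 (8%) lower, against 9.19%. After quantile and after cyclic loess normalization the direction turned, with 16 of 25 higher (medians 0.06 and 0.05), 2 by 1.5-fold, and 1 lower by 1.5-fold. Of all genes, 47.5% and 47.8% were then higher, 8.09% and 8.18% by 1.5-fold, and 9.24% and 9.48% were lower by 1.5-fold. The widest were Cyp46a1, a cholesterol hydroxylase best known from brain (-0.84), and Nceh1, a cholesteryl ester hydrolase (-0.64). Cyp46a1 was dim, with 3.37 and 3.76 on KD_30h and KD_0h, against 4.21 and 3.71 on WT_30h and WT_0h. The oxysterol hydroxylase Cyp7b1 (0.52) and Cyp7a1, the rate-limiting enzyme of classic bile acid synthesis (0.42), were the highest. At 0 h, 17 of the 25 (68%) were higher (median 0.19), against 51% of all genes and 56.7% of bright genes. At least 1.5-fold higher were 3 (12%), against 7.74% of all genes and 7.7% of bright genes, namely Cyp7a1 (0.77), the sterol carrier Stard5 (0.67) and Mbtps1, the protease that makes the first of the cuts freeing SREBP (0.62). Osbp, an oxysterol-binding lipid exchanger, was the lowest (-0.84).

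After hepatectomy, 18 of these 25 genes (72%) were lower in knockdown liver (median -0.15), against 48.8% of all genes and 53.1% of bright genes. In control liver 9 of the 25 (36%) were lower (median 0.11), against 50% of all genes and 40.8% of bright genes, a share near that of bright genes. Cyp27a1, the sterol 27-hydroxylase, was lower at 30 h in both, with differences of -0.78 in knockdown and -0.86 in control liver. Nceh1 was higher by 0.50 in knockdown and 1.48 in control liver. The remaining wide differences in knockdown liver were those of Cyp7a1 (-0.61) and Erlin2, an endoplasmic reticulum protein linked to sterol-regulated degradation (-0.50). In control liver they were those of Ch25h, cholesterol 25-hydroxylase (-0.86), and Vldlr, a lipoprotein receptor (-0.78). Erlin2 and Ch25h were dim like Cyp46a1. Erlin2 read 3.08 and 3.58 on KD_30h and KD_0h, and Ch25h 3.18 and 4.04 on WT_30h and WT_0h. By the difference of responses, Nceh1 (-0.98), Cyp46a1 (-0.89), Ch25h (0.78) and Mbtps1 (-0.76) were the widest.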

How the data were processed

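Liver RNA of 4 groups was measured on 4 whole-transcript arrays, 1 array of pooled RNA a group, grouped by sample title. The authors deposited RMA values on a log2 scale, and Affymetrix Expression Console is the software that the submitters' processing notes name. For its version, its settings and the genome build, the sources used here give nothing. Because RMA scales arrays to each other, it can hide a shift common to all genes. The deposited arrays were still not fully equal. The median of bright genes was 5.22 and 5.28 on KD_30h and KD_0h, against 5.35 and 5.23 on WT_30h and WT_0h. Of 22206 probe sets, 19572 carried 1 symbol in the platform annotation, 0 several, and 2634 were unnamed and not used. A gene with several probe sets (55 of 19505 genes) took the brightest by its mean over the 4 arrays. No detection call was used. Array medians lay between 3.75 and 3.84, and r between arrays, across probe sets, from 0.953 to 0.974.

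Differences of log2 values were computed for 5 comparisons, with counts at 2-fold and 1.5-fold beside those over all genes and over bright genes. No test was run, for want of replicates. The counting was checked on simulated data. Genes written out array by array are those differing by at least 1.5-fold between arrays in any comparison of 2 groups, plus Abcg5 as the partner of Abcg8; further cholesterol genes are the 4 widest a comparison. The promoters shown are those of the 8 genes with the widest differences among genes with a RefSeq window, plus Abcg5. The members, lists and rules were chosen with earlier results of these data known. The alternatives used limma 3.58.1 in R 4.3.3, with Python 3.11.15 and pandas 2.3.3. The genotype field of the knockdown arrays differs from the treatment protocol in an item that is not reported here.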

Additional observations from a re-analysis of the deposited data

Results flagged for a closer look

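Pltp differed by at least 1.5-fold in opposite directions in the 2 genotypes after hepatectomy, and in opposite directions at the 2 times between genotypes. Its difference between 30 h and 0 h was -1.83 in knockdown liver and 0.63 in control liver, and its difference between knockdown and control liver was 1.38 at 0 h and -1.08 at 30 h. Both give the same difference of responses, -2.46. The control response was under 1.5-fold after quantile (0.53) and cyclic loess normalization (0.58), where the difference of responses was -2.41 and -2.37. The KD_30h value of Pltp (4.02) lay close to the median of all genes on that array (3.86). With 1 array a group this difference was not tested.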

How the results depend on the processing

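No paired analysis was possible because each group had 1 array. Lowering the threshold to 1.5-fold gave 6 genes lower and 2 higher in the knockdown response, 5 lower and 1 higher in the control response, 6 higher and 3 lower in knockdown against control at 30 h, and 2 higher and 4 lower in the difference of responses. At 2-fold, 2 genes were lower in the control response after quantile normalization and 1 after cyclic loess, against 0 as deposited. Knockdown against control had 1 gene 2-fold higher at 0 h after each of these, against 2, and 2 higher at 30 h after each, against 1. The difference of responses had 1 gene 2-fold lower after cyclic loess, against 2. The median over the 29 genes became -0.285 (quantile) and -0.26 (cyclic loess) in the control response, against -0.09; 0.24 (cyclic loess) at 30 h, against 0.12; and 0.13 (quantile) and 0.16 (cyclic loess) in the difference of responses, against -0.03. In the difference of responses 6 genes were 1.5-fold higher after quantile and after cyclic loess, against 2. The cause was not tested. Of 145 gene differences, 20 changed sign under quantile normalization, 20 under cyclic loess and 3 under median centring, none larger than 0.23 as deposited. Averaging probe sets changed no value, since each gene had 1, and leaving out the dim Ggps1 moved no count or median past its limit. With 1 array a group, dim genes are the least precise.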
